A study of Mus musculus with 36 samples.

Results

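The receptors described here are Ccr1, Ccr2, Ccr7, Ccr9, Cxcr2, Cxcr4, Cxcr5, Cx3cr1 and C5ar1, chosen by name from the 40354 genes of the count tables and read in every library. C5ar1 is the receptor for complement C5a and not a chemokine receptor, so the 9 genes are called chemoattractant receptors below. The measurement was polyA RNA-seq of mouse B cells that were turned into macrophages by C/EBPα, a myeloid transcription factor, in a process called B cell to macrophage transdifferentiation (BMT). Each group had 2 biological replicates, and 3 constructs sampled at 0, 1, 3, 6, 18 and 120 hours post induction (hpi) gave 18 groups and 36 libraries. The constructs were wild-type C/EBPα and the mutants R35A and R35K, in which an arginine was replaced by alanine or by lysine. All groups shared the same background, which was C57BL/6J bone marrow B cells isolated by magnetic sorting, infected with a retrovirus that encodes C/EBPα fused to the estrogen receptor (C/EBPα-ER) and a human CD4 reporter, and kept with cytokines on inactivated mouse embryonic fibroblasts. Estradiol (E2) moved the fusion protein into the nucleus, so that 0 hpi is the state before induction. The factor was expressed from a virus, the cultures held feeder fibroblasts that were removed before lysis by adherence to the dish, and the labels do not say which animals gave which replicate, so p-values measure the spread between these libraries.

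Chemokine receptors are G protein-coupled receptors that couple to inhibitory G proteins and steer cell migration along gradients of chemokines. Progenitor B cells are held in the bone marrow niche by Cxcr4, and Cxcr5 and Ccr7 guide mature B cells into follicles and T cell zones of lymphoid organs. Ccr2, Ccr1, Cx3cr1 and C5ar1 are carried by monocytes and macrophages, Cxcr2 is best known from neutrophils, and Ccr9 directs lymphocytes to the gut and thymus.

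In mm10 with GENCODE vM21, 5 of the 9 genes lie on chromosome 9. Ccr9 (chr9:123678439-123784330, plus strand), Ccr1 (chr9:123962124-123968692, minus strand) and Ccr2 (chr9:124101950-124113557, plus strand) are in the same receptor cluster, while Cx3cr1 (chr9:119901616-120069879, minus strand) and Cxcr5 (chr9:44511787-44561877, minus strand) are elsewhere on that chromosome. Cxcr2 (chr1:74153989-74161246, plus strand) and Cxcr4 (chr1:128588199-128592293, minus strand) are on chromosome 1, Ccr7 (chr11:99144196-99155077, minus strand) is on chromosome 11 and C5ar1 (chr7:16246743-16259540, minus strand) is on chromosome 7. The 250 bases upstream of the annotated start were taken from RefSeq (GRCm38.p6) and matched by symbol for 7 of the 9 genes, all except Ccr7 and Cxcr5. They are shown, 5′ to 3′ on the gene's strand, for 2 receptors that rose from near 0 and for the receptor that was abundant before induction. Capitals mark the match to the PU.1 motif described next.
Ccr1 upstream (chr9:123968693-123968942, minus strand): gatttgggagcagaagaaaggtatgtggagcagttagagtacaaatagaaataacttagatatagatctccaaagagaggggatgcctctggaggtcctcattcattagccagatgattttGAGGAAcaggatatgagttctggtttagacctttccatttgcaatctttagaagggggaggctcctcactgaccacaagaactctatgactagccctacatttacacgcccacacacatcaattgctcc
C5ar1 upstream (chr7:16259339-16259588, minus strand): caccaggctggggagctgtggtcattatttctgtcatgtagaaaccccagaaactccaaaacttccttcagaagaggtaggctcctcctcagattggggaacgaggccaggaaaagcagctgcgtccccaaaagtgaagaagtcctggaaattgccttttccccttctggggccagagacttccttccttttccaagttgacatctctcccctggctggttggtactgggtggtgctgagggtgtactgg
Cxcr4 upstream (chr1:128592300-128592549, minus strand): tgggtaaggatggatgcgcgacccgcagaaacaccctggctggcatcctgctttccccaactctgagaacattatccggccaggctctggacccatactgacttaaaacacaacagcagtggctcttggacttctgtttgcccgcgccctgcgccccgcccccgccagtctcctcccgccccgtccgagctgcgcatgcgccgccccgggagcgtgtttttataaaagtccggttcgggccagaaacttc

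Both strands were searched for TTGCNNAA, a C/EBP motif, and for GAGGAA, the core bound by the myeloid and B cell factor PU.1. The 2 motifs did not overlap in any of these windows. Ccr1 had GAGGAA on the gene's strand at -129 to -124 from the start, and Cxcr2 had its reverse complement, TTCCTC, at -81 to -76. TTGCNNAA was in none of the 7 windows, and 9.56% of all 32851 windows of this length held it, against 23.3% for GAGGAA. In GENCODE vM21, all 250 bases of the Cx3cr1 window and 233 bases of the Ccr2 window are annotated as exon. By that annotation these windows lie wholly or almost wholly within the gene, not upstream of it. The Ccr9 window (chr9:123766961-123767210, 42 exonic bases) also lies within its gene. Most of the C5ar1 window is within its gene too, which begins at position 16259540 on the minus strand, although only 28 of the window's bases are exonic. These are matches of letters, and binding was not examined.

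Total counts per library ran from 13044456 to 23131776, with a median of 15471229.5, and levels are given in CPM, counts scaled to the library total after TMM normalization. Over genes with at least 50 counts, the spread between replicates was 1.08 to 2.16 times the counting noise (median 1.25, 18 pairs), and no replicate pair fell below that noise. B cell markers summed to between 3339 and 3666 CPM at 0 hpi and between 63.5 and 138 CPM at 120 hpi, while macrophage markers went from 66.3 to 73.3 CPM up to 18338 to 29718 CPM. Markers of the fibroblast feeders summed to 5676 to 6167 CPM at 0 hpi and 7243 to 14615 CPM afterwards, carried largely by Fn1. Every other feeder marker had a lower mean at 120 hpi than at 0 hpi in each construct, and Lum was then at 0. With the wild-type construct, Fn1 averaged 4713 CPM before induction and 9754 CPM at 120 hpi. Col1a1 averaged 355 and 29.2 CPM there, Col3a1 131 and 3.95, Postn 85.3 and 0.279, and Thy1 137 and 1.70. Col1a2 fell little with R35A (means of 303 and 280 CPM). The sum alone thus does not show how much feeder RNA was left at 120 hpi. The neutrophil list went in sum from 47.0-61.6 CPM to 2162-2715 CPM at 120 hpi, almost entirely through Mmp8, a gene that macrophages can also express. T cell markers reached 1.92 CPM and NK cell markers 2.48 CPM at most, dendritic cell markers went from 5.41-7.07 CPM to 136-197 CPM, almost entirely through Itgax, an integrin gene that macrophages can also express, and mast cell and basophil markers went from 18.8-22.8 CPM to 0.764-6.31 CPM after a peak of 50.5 CPM. The R35K libraries came in tables separate from the others, so a difference in level between R35K and other cells cannot be told apart from one between the tables. In bulk RNA, fewer cells of a type and less RNA per cell cannot be told apart.

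**Figure D1:**
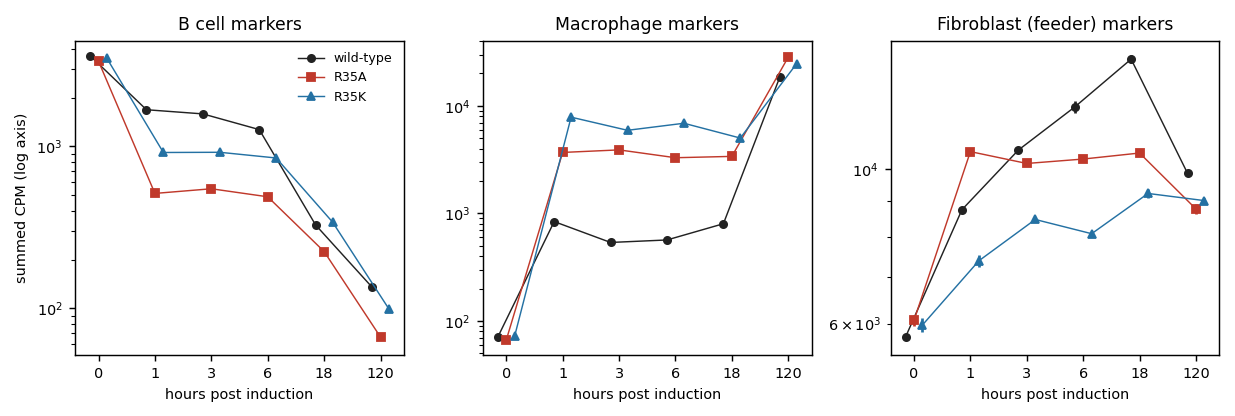
Summed CPM (log axis) of B cell, macrophage and fibroblast feeder markers against hours post induction. Points are the middle of the 2 libraries and bars run from the lower to the higher library; macrophage markers at 1 hpi sat at 834 to 847 CPM in wild-type cells, 3684 to 3699 in R35A cells and 7783 to 7926 in R35K cells.

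The receptors of monocytes and macrophages, Ccr1, Ccr2, Cx3cr1 and C5ar1, rose at every timepoint after induction in all 3 constructs. The receptors of the B cell state, Ccr7 and Cxcr5, fell at every timepoint. Cxcr4 was lower at 18 hpi in all 3 constructs and within 1.5-fold of its starting level at 120 hpi, and Cxcr2 and Ccr9 had at most 14 counts in each library except for Cxcr2 in wild-type cells at 120 hpi. A gene was called where it changed at least 1.5-fold and had an adjusted p, after Benjamini and Hochberg over all genes of the fit, no higher than 0.05 (edgeR quasi-likelihood test). All later timepoints are compared with the same 0 hpi libraries of their construct, so the values are given side by side and not as independent repeats.

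In wild-type cells, 6 of the 9 receptors were called at 1 hpi (4 higher, 2 lower), against 19.9% of the 16988 genes tested. At 3 hpi there were 7 (4 higher, 3 lower; 23.5% of genes), at 6 hpi 7 (4 and 3; 29.8%), at 18 hpi 8 (4 and 4; 47.1%) and at 120 hpi 7 (5 and 2; 63.3%). In R35A cells the count was 7 of 9, 4 higher and 3 lower, at each of 1, 3, 6 and 18 hpi, where 37.3%, 36.8%, 37.7% and 42.6% of genes were called, and 6 (4 higher, 2 lower) at 120 hpi, against 63.1%. In R35K cells 7 receptors passed the low-count filter, all except Cxcr2 and Ccr9, and 7 were called (4 higher, 3 lower) at 1, 3, 6 and 18 hpi, beside 32.9%, 32.7%, 34.1% and 39.0% of 16434 genes. At 120 hpi 6 of these were called (4 higher, 2 lower), beside 63.8%.

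**Figure D2:**
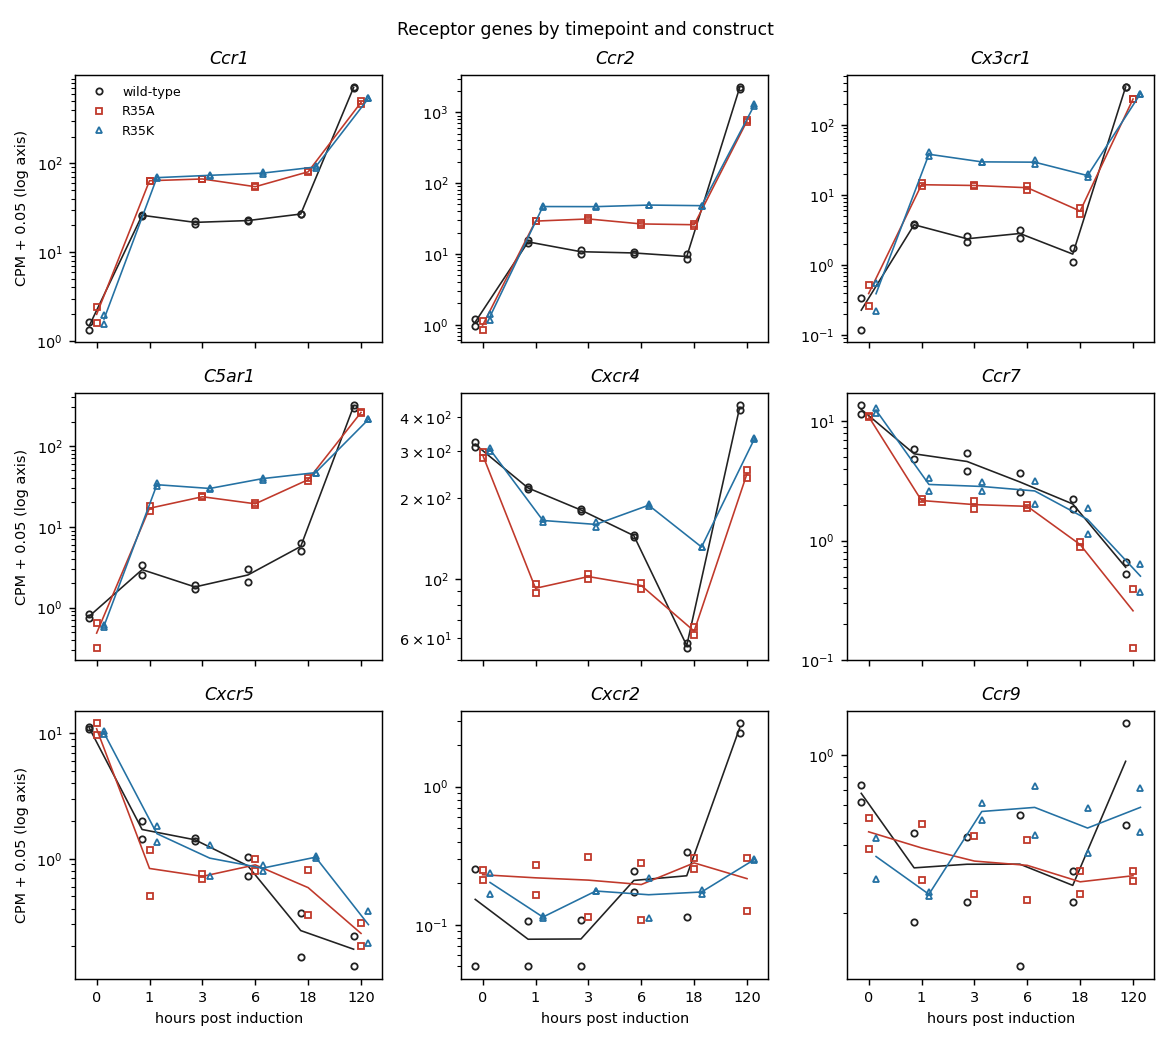
CPM + 0.05 (log axis) of the 9 receptors in each library against hours post induction, with lines through the mean of the 2 libraries of each group; points of the 3 constructs are offset sideways. Ccr1, Ccr2, Cx3cr1 and C5ar1 are lowest at 0 hpi and highest at 120 hpi, with the mutants above wild-type cells from 1 to 18 hpi and below them at 120 hpi.

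Ccr1, the receptor for Ccl3, Ccl5 and other inflammatory chemokines, is also a member of the macrophage signature that the study itself used. In wild-type cells Ccr1 measured 1.58 and 1.28 CPM at 0 hpi, 26.2 and 25.6 at 1 hpi, 22.6 and 20.5 at 3 hpi, 22.9 and 22.2 at 6 hpi, 26.6 and 26.9 at 18 hpi, and 697 and 728 at 120 hpi. In R35A cells the libraries held 1.54 and 2.34 CPM of Ccr1 at 0 hpi, 63.2 and 63.9 at 1 hpi, 67.0 and 66.0 at 3 hpi, 53.9 and 54.9 at 6 hpi, 78.9 and 81.3 at 18 hpi, and 469 and 499 at 120 hpi. In R35K cells they held 1.91 and 1.51, 67.7 and 70.0, 73.9 and 72.4, 74.9 and 80.0, 92.6 and 88.9, and 537 and 538 CPM at the same times. Libraries after induction were all above every 0 hpi library, and the mutant libraries lay above the wild-type ones from 1 to 18 hpi and below them at 120 hpi, without overlap. Ccr1 rose by 4.19 ± 0.131 (log2, SE, n = 2 per group) within 1 hpi in wild-type cells (edgeR, adjusted p = 1.01e-31), by 4.97 ± 0.0958 in R35A cells (edgeR, adjusted p = 1.26e-41) and by 5.26 ± 0.0947 in R35K cells (edgeR, adjusted p = 1.79e-31). By 120 hpi the rise was 8.82 ± 0.0777, 7.80 ± 0.0737 and 8.18 ± 0.0754 on the log2 scale.

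Ccr2 binds Ccl2 and drives the exit of inflammatory monocytes from bone marrow. Wild-type libraries gave 1.16 and 0.925 CPM of Ccr2 at 0 hpi, 15.5 and 14.0 at 1 hpi, 11.3 and 10.1 at 3 hpi, 10.1 and 10.5 at 6 hpi, 8.35 and 9.95 at 18 hpi, and 2146 and 2299.8 at 120 hpi. R35A libraries gave 1.07 and 0.798, 29.1 and 29.0, 32.3 and 30.0, 25.3 and 27.7, 26.7 and 24.9, and 738 and 770.1 CPM at these 6 times. R35K libraries gave 1.39 and 1.13, 46.0 and 47.3, 46.1 and 47.0, 48.5 and 49.4, 48.0 and 48.0, and 1226 and 1312 CPM. Between 1 and 18 hpi the order was R35K above R35A above wild-type with no overlap, and at 120 hpi it was wild-type above R35K above R35A, again with no overlap. The change from 0 hpi to 1 hpi was 3.82 ± 0.16 (log2, SE) with the wild-type construct, 4.95 ± 0.133 with R35A and 5.14 ± 0.103 with R35K. At 120 hpi Ccr2 was 10.91 ± 0.0815 above 0 hpi on the log2 scale in wild-type cells (edgeR, adjusted p = 1.98e-60), 9.55 ± 0.0847 in R35A cells and 9.86 ± 0.0742 in R35K cells. Of the 50-base windows of Ccr2, 1.91% occur in another gene, so reads of that share could be counted elsewhere or not at all.

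Cx3cr1, the receptor for fractalkine (Cx3cl1) on patrolling monocytes and tissue macrophages, had almost no reads before induction. The 6 libraries at 0 hpi held between 1 and 8 counts, with 0.0685 and 0.285 CPM for wild-type, 0.469 and 0.213 for R35A cells and 0.174 and 0.504 in R35K cells. At 1 hpi wild-type libraries measured 3.74 and 3.66 CPM, R35A libraries 13.3 and 14.6, and R35K libraries 40.6 and 35.5. R35K, R35A and wild-type libraries kept this order at 3 and 6 hpi, with 27.3 to 31.3 CPM, 11.7 to 13.7 CPM and 2.09 to 3.14 CPM. Levels then declined, to 1.72 and 1.04 CPM in wild-type, 6.41 and 5.26 in R35A and 18 and 19.6 in R35K cells at 18 hpi, before they reached 351 and 344, 232 and 236, and 279 and 278 CPM at 120 hpi. The 3 constructs were separate at 1 and 18 hpi in the order R35K, R35A, wild-type, and at 120 hpi in the order wild-type, R35K, R35A. The rise by 1 hpi was 4.37 ± 0.381, 5.36 ± 0.222 and 6.75 ± 0.179 (log2, SE) in wild-type, R35A and R35K cells, and all of these were called. Expressed as a ratio of counts, Cx3cr1 at 1 hpi was 21.2 times its 0 hpi level in wild-type cells (exact 95% interval 8.84 to 66.5, 121 against 5 counts), 42.7 times in R35A cells (23.7 to 86.1) and 114 times in R35K cells (63.7 to 229.7), where intervals cover counting error only. The fall between 6 and 18 hpi was called in wild-type (-1.0 ± 0.245), R35A (-1.14 ± 0.117) and R35K cells (-0.62 ± 0.0815), although without the replicate 2 library of wild-type cells at 18 hpi the adjusted p for wild-type cells became 0.0684, and the R35K call was lost without replicate 2 at 6 hpi or replicate 1 at 18 hpi, where the change of -0.52 or -0.56 was under 1.5-fold. Cx3cr1 overlaps the antisense gene Gm33858 over 78 exonic bases.

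C5ar1, which carries neutrophils and macrophages towards complement C5a, had the largest difference between wild-type and mutant cells in its rise by 1 hpi among the receptors called for it. In wild-type cells C5ar1 measured 0.685 and 0.783 CPM at 0 hpi, 3.35 and 2.46 at 1 hpi, 1.66 and 1.85 at 3 hpi, 2.03 and 2.95 at 6 hpi, 5.03 and 6.30 at 18 hpi, and 322 and 298 at 120 hpi. R35A cells showed 0.603 and 0.266, 18 and 15.7, 24 and 23.0, 19.7 and 18.7, 36.8 and 39.7, and 259 and 261 CPM. R35K cells showed 0.521 and 0.567, 31.6 and 34.7, 30.2 and 29.4, 40.6 and 38.3, 46.6 and 46.9, and 213 and 213 CPM. Every mutant library from 1 to 18 hpi was above every wild-type library of those times, and at 120 hpi the wild-type libraries were the highest. C5ar1 rose by 1.98 ± 0.299 (log2, SE) at 1 hpi in wild-type cells (edgeR, adjusted p = 1.45e-07) but by 5.30 ± 0.206 in R35A cells and 5.86 ± 0.148 in R35K cells. By 120 hpi the changes were 8.58 ± 0.113, 9.14 ± 0.121 and 8.50 ± 0.105, so the order of the mutants and wild-type cells seen at 1 hpi was not kept.

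Cxcr4, the receptor for Cxcl12 and the most abundant of these genes before induction, fell and then returned. In wild-type cells Cxcr4 measured 310.3 and 323 CPM at 0 hpi, 221 and 215 at 1 hpi, 179 and 182 at 3 hpi, 144 and 146 at 6 hpi, 57.5 and 55.1 at 18 hpi, and 445 and 425 at 120 hpi. R35A libraries held 283 and 296 CPM at 0 hpi, 95.9 and 88.3 at 1 hpi, 99.9 and 104 at 3 hpi, 96.8 and 91.9 at 6 hpi, 61.4 and 66.1 at 18 hpi, and 238 and 255 at 120 hpi. R35K libraries held 299.5 and 307, 167 and 163, 156 and 163, 189 and 187, 131 and 131, and 333 and 332 CPM. The fall was thus gradual in wild-type cells, largely reached by 1 hpi in R35A cells, and shallower in R35K cells. As a share of its 0 hpi mean, Cxcr4 stood at 68.8%, 56.9%, 45.7%, 17.8% and 137% at the successive times after induction in wild-type cells, at 31.8%, 35.2%, 32.6%, 22.0% and 85.2% in R35A cells, and at 54.4%, 52.6%, 62.0%, 43.3% and 110% in R35K cells. At 18 hpi the change was -2.50 ± 0.0456 (log2, SE) in wild-type cells (edgeR, adjusted p = 1.08e-42), -2.20 ± 0.0443 in R35A cells and -1.25 ± 0.0386 in R35K cells, all called. The change of -0.52 ± 0.0396 at 1 hpi in wild-type cells and those at 120 hpi (0.33 ± 0.0389, -0.35 ± 0.0398 and 0.03 ± 0.0369) were under the 1.5-fold threshold.

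Ccr7, which brings lymphocytes and dendritic cells to lymph nodes, fell throughout. Its wild-type libraries gave 11.4 and 13.7 CPM at 0 hpi, 5.78 and 4.81 at 1 hpi, 5.35 and 3.76 at 3 hpi, 2.48 and 3.62 at 6 hpi, 2.17 and 1.79 at 18 hpi, and 0.619 and 0.477 at 120 hpi. R35A libraries gave 10.9 and 11.0, 2.17 and 2.06, 1.80 and 2.11, 1.83 and 1.95, 0.834 and 0.920, and 0.341 and 0.0758 CPM, and R35K libraries 13.0 and 11.7, 3.27 and 2.54, 2.56 and 3.03, 1.98 and 3.14, 1.83 and 1.08, and 0.584 and 0.325 CPM. R35A and R35K libraries lay below the wild-type ones at 1 and 3 hpi, and R35K and wild-type libraries overlapped from 6 hpi on. At 1 hpi Ccr7 fell by 1.23 ± 0.143 (log2, SE) in wild-type cells, by 2.38 ± 0.171 in R35A cells and by 2.14 ± 0.171 in R35K cells (edgeR, adjusted p = 2.39e-10, 1.15e-17 and 4.28e-13). Between 0 and 120 hpi the ratio of counts was 22.7 in wild-type cells (exact 95% interval 12.9 to 44.4), 54.4 in R35A cells (23.1 to 169) and 27.3 in R35K cells (15.1 to 55.2). These intervals overlap, and the ratios rest on 12, 5 and 11 counts of Ccr7 at 120 hpi in wild-type, R35A and R35K cells.

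Cxcr5, the receptor for the follicular chemokine Cxcl13, lost most of its signal within 1 hpi in every construct. At 0 hpi it measured 11.3 and 10.7 CPM in wild-type, 9.65 and 12.0 in R35A and 10.3 and 9.76 in R35K cells, and at 1 hpi 1.38 and 1.95, 1.11 and 0.459, and 1.77 and 1.30 CPM. At 3 and 6 hpi all libraries lay between 0.639 and 1.40 CPM, and the R35A libraries were at 0.769 and 0.307 CPM at 18 hpi. By 120 hpi the libraries held 1 to 4 counts, or 0.0884 to 0.334 CPM. The libraries at 0 hpi did not overlap with any later library. At 1 hpi Cxcr5 fell by 2.69 ± 0.204, 3.8 ± 0.229 and 2.76 ± 0.194 on the log2 scale (SE, n = 2 per group), in wild-type, R35A and R35K cells. The ratio of the counts at 0 hpi to those at 120 hpi was 80.1 (exact 95% interval 27.2 to 390.4) in wild-type, 54.7 (23.2 to 169) in R35A and 40.7 (18.5 to 112) in R35K cells, with overlapping intervals. At 18 hpi wild-type libraries were already at 0.319 and 0.116 CPM, whereas R35K libraries were at 1.00 and 0.956, a ratio of 4.62 (exact 95% interval 2.0 to 12.4). Cxcr5 shares 110 exonic bases with Bcl9l on the other strand.

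Cxcr2 and Ccr9 had few counts, against a floor of 3. Cxcr2 had 0 to 5 counts in every library except those of wild-type cells at 120 hpi, which held 32 and 25 counts (2.83 and 2.39 CPM). That level was 25.0 times that of wild-type cells at 0 hpi (exact 95% interval 8.13 to 125), 16.3 times that of R35A cells at 120 hpi (6.03 to 61.9) and 10.6 times that of R35K cells at 120 hpi (4.58 to 30.1). The increase in wild-type cells was called (edgeR, adjusted p = 4.04e-09), and 4.01% of the 50-base windows of Cxcr2 occur in another gene. Ccr9 had 1 to 14 counts in every library, with its highest value, 1.34 CPM, in 1 of the 2 wild-type libraries at 120 hpi and 0.442 CPM in the other. Its fall in wild-type cells at 18 hpi (adjusted p = 0.0371, edgeR; 18 against 7 counts) was lost when any of the 4 libraries was left out. Ccr9 shares 1932 exonic bases with AC165425.1 on the other strand, 269 with Gm17200 on its own strand and 22 with Slc6a20a, so its few reads cannot be assigned with certainty.

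**Figure D3:**
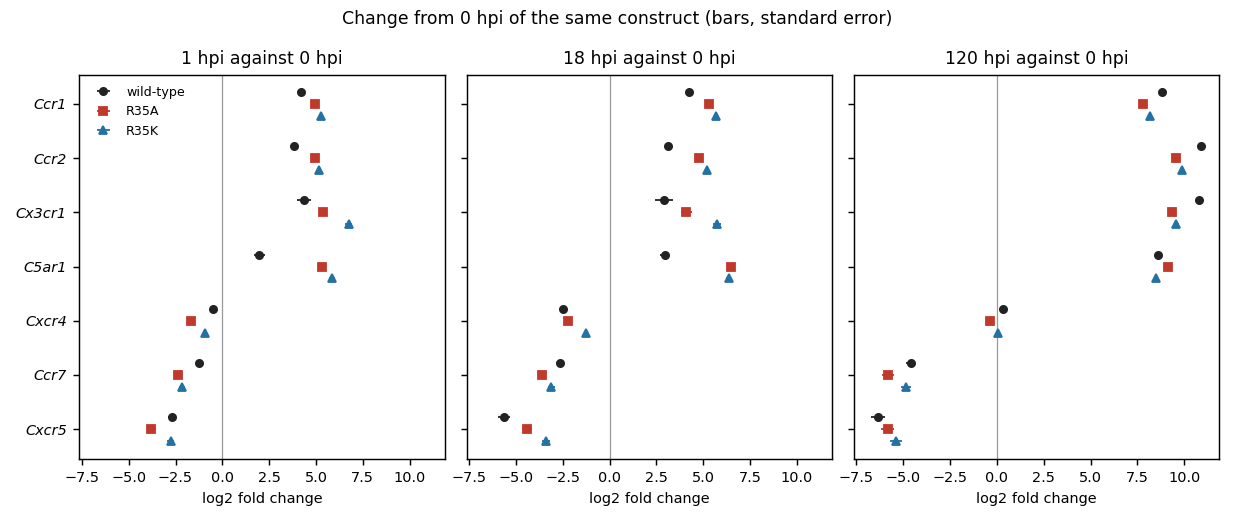
Log2 change from 0 hpi with its standard error at 1, 18 and 120 hpi in the 3 constructs, for the 7 receptors that passed the low-count filter in every fit. At 1 hpi C5ar1 stands at 1.98 in wild-type cells against 5.30 in R35A and 5.86 in R35K cells, while Ccr7 and Cxcr5 are below 0 throughout.

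Between neighbouring timepoints after 1 hpi, few receptors changed before 6 hpi and most changed after 18 hpi. From 1 to 3 hpi only Cx3cr1 (-0.70 ± 0.2, edgeR adjusted p = 0.0133) and C5ar1 (-0.73 ± 0.232, edgeR adjusted p = 0.0299) were called in wild-type cells, beside 1.04% of genes, and from 3 to 6 hpi none was, beside 1.04% (1 at unadjusted p, 0 with a DESeq2 Wald test). Each of these 2 calls was lost without 3 of the 4 libraries in turn. No receptor was called for the same steps in R35A cells (0.553% and 0.177% of genes) or R35K cells (0.347% and 1.19%), where unadjusted p gave 1 call, in R35K cells from 1 to 3 hpi, and a DESeq2 Wald test gave 0. From 6 to 18 hpi wild-type cells had 5 called receptors, beside 13.3% of genes, namely C5ar1 (1.2 ± 0.183), Cxcr4 (-1.35 ± 0.0475), Cxcr5 (-1.90 ± 0.566), Cx3cr1 and Ccr7 (-0.62 ± 0.235). R35A cells had 3 (4.28% of genes), with C5ar1 at 1.00 ± 0.0751, Ccr7 at -1.1 ± 0.299 and Cx3cr1, and R35K cells had 2 (5.40%), Cx3cr1 and Ccr7 (-0.79 ± 0.275). Leaving out 1 library, the wild-type count for this step ranged from 2 (without replicate 2 at 18 hpi) to 5 and the R35K count from 0 (without replicate 2 at 6 hpi) to 2, and Ccr7 in R35A cells was lost without replicate 2 at 6 hpi (adjusted p = 0.0581).

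From 18 to 120 hpi, 8 of 9 receptors were called in wild-type cells (7 higher, 1 lower, beside 60.5% of genes), 6 in R35A cells (5 and 1, beside 53.9%) and 7 in R35K cells (5 and 2, beside 53.3%). Ccr2 rose by 7.79 ± 0.0604 on the log2 scale over this interval in wild-type cells, by 4.77 ± 0.0518 in R35A cells and by 4.67 ± 0.046 in R35K cells. C5ar1 rose by 5.64 ± 0.0785, 2.66 ± 0.0571 and 2.13 ± 0.0497, and Cxcr4 by 2.82 ± 0.0456, 1.85 ± 0.0453 and 1.28 ± 0.0389. In each construct Ccr2 and C5ar1 thus gained most of their final level in this last interval. The call for Ccr9 in wild-type cells (1.88 ± 0.657, edgeR adjusted p = 0.00862) rested on 1 library, since the adjusted p was 0.321 without replicate 2 at 120 hpi, and Ccr7 in R35A cells was lost without replicate 2 at 120 hpi (adjusted p = 0.0641).

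The difference between constructs was tested as the change from 0 hpi in the mutant minus that in wild-type cells. At 0 hpi itself, R35A and wild-type cells differed in none of the 9 receptors, and 0% of genes were called (edgeR; 261 genes had an unadjusted p of at most 0.05 with the fold threshold, and a DESeq2 Wald test called 1, none of them a receptor). For R35A cells 6 receptors were called at 1 hpi (3 higher, 3 lower), beside 14.0% of genes. At 3 hpi 5 were called (3 and 2, beside 13.0%), at 6 hpi 3 (all higher, beside 10.3%), at 18 hpi 4 (3 and 1, beside 8.36%) and at 120 hpi 4 (all lower, beside 14.5%). For R35K cells the counts were 5 at 1 hpi (4 higher, 1 lower, beside 11.9%), 5 at 3 hpi (4 and 1, beside 10.0%), 4 at 6 hpi (all higher, beside 12.2%), 6 at 18 hpi (all higher, beside 13.3%) and 2 at 120 hpi (both lower, beside 10.1%). The 5 tests of a construct share the same 0 hpi libraries.

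The early rise of the monocyte receptors was larger in the mutants. For C5ar1 the excess over wild-type cells at 1, 3, 6 and 18 hpi was 3.32 ± 0.513, 4.52 ± 0.538, 3.74 ± 0.521 and 3.54 ± 0.507 (log2, SE) in R35A cells (edgeR, adjusted p = 5.02e-07 at 1 hpi) and 3.95 ± 0.488, 4.5 ± 0.505, 4.40 ± 0.498 and 3.46 ± 0.472 in R35K cells (edgeR, adjusted p = 1.68e-09 at 1 hpi). The excess of Ccr2 was 1.12 ± 0.321, 1.70 ± 0.327, 1.55 ± 0.326 and 1.66 ± 0.327 in R35A and 1.39 ± 0.294, 1.85 ± 0.3, 1.98 ± 0.302 and 2.11 ± 0.304 in R35K cells, and all were called. That of Ccr1 was 0.78 ± 0.255, 1.13 ± 0.259, 0.80 ± 0.256 and 1.1 ± 0.258 in R35A and 1.15 ± 0.252, 1.5 ± 0.255, 1.52 ± 0.255 and 1.5 ± 0.254 in R35K cells, also all called. Cx3cr1 was called in R35K cells (2.46 ± 0.896, 2.78 ± 0.915, 2.51 ± 0.901 and 2.88 ± 0.927) and not in R35A cells (0.99 ± 0.803, 1.66 ± 0.827, 1.33 ± 0.815 and 1.19 ± 0.822). Both sets of differences use 0 hpi libraries with few counts of Cx3cr1. Whether R35A and R35K differ from each other was not tested.

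These differences carry the counting error of the 0 hpi libraries, where Ccr1 had 18 to 44 counts in wild-type and R35A cells. Without replicate 1 of wild-type cells at 0 hpi, the adjusted p of Ccr1 in R35A cells became 0.271, 0.0707, 0.297 and 0.109 at 1, 3, 6 and 18 hpi, and without replicate 1 of R35A cells at 0 hpi it became 0.211 at 1 hpi and 0.234 at 6 hpi. The 6 hpi call of Ccr1 was also lost without replicate 2 of wild-type cells at 0 hpi (adjusted p = 0.0529) or at 6 hpi (adjusted p = 0.0541). Ccr2 in R35A cells at 1 hpi was lost without replicate 1 of wild-type cells (adjusted p = 0.159) or replicate 2 of R35A cells at 0 hpi (adjusted p = 0.119). In R35K cells at 1 hpi, Ccr1 and Ccr2 were lost without replicate 1 of wild-type cells at 0 hpi (adjusted p = 0.0714 and 0.0613). Cx3cr1 in R35K cells lost its call at 1, 3, 6 and 18 hpi without replicate 2 of wild-type cells (differences of 1.2, 1.52, 1.26 and 1.62) or replicate 1 of R35K cells at 0 hpi (1.87, 2.19, 1.92 and 2.29), and at 6 hpi also without replicate 2 of wild-type cells at that time. The C5ar1 differences in change from 1 to 18 hpi kept their calls with any library left out. In a comparison of levels at the same time that leaves the 0 hpi libraries out, added after the data were seen, R35A cells were above wild-type cells at 1 hpi by 1.25 ± 0.0543 (log2, SE) for Ccr1, 0.94 ± 0.0726 for Ccr2, 1.87 ± 0.126 for Cx3cr1 and 2.51 ± 0.134 for C5ar1. At 18 hpi these levels differed by 1.57 ± 0.0523, 1.47 ± 0.0815, 2.06 ± 0.193 and 2.74 ± 0.0971, all called with edgeR, so Cx3cr1 passed in the levels of R35A cells but not in their change.

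Cxcr4 and the receptors of the B cell state, Ccr7 and Cxcr5, also differed from wild-type cells in their change. Cxcr4 fell further than in wild-type cells in R35A cells at 1 hpi (-1.16 ± 0.0579, edgeR adjusted p = 9.64e-23) and 3 hpi (-0.72 ± 0.0584), and by 18 hpi the difference of 0.30 ± 0.0643 was under the fold threshold. In R35K cells it was -0.34 ± 0.0559 at 1 hpi, under the threshold, and 1.28 ± 0.0604 at 18 hpi, called (edgeR, adjusted p = 4.55e-25), where Cxcr4 had fallen less than in wild-type cells. Ccr7 fell further in R35A cells at 1 hpi (-1.15 ± 0.237), 3 hpi (-1.03 ± 0.252) and 18 hpi (-0.97 ± 0.332), and in R35K cells at 1 hpi (-0.84 ± 0.242) and 3 hpi (-0.65 ± 0.238). Cxcr5 fell further in R35A cells at 1 hpi (-1.11 ± 0.372, edgeR adjusted p = 0.0161) and less in R35K cells at 18 hpi (2.30 ± 0.556, edgeR adjusted p = 0.00076). The Ccr7 differences at 18 hpi in R35A cells and at 3 hpi in R35K cells were lost on leaving out any of 4 libraries in turn, the Ccr7 difference at 1 hpi in R35K cells any of 2, and the Cxcr5 difference in R35A cells any of 3.

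**Figure D4:**
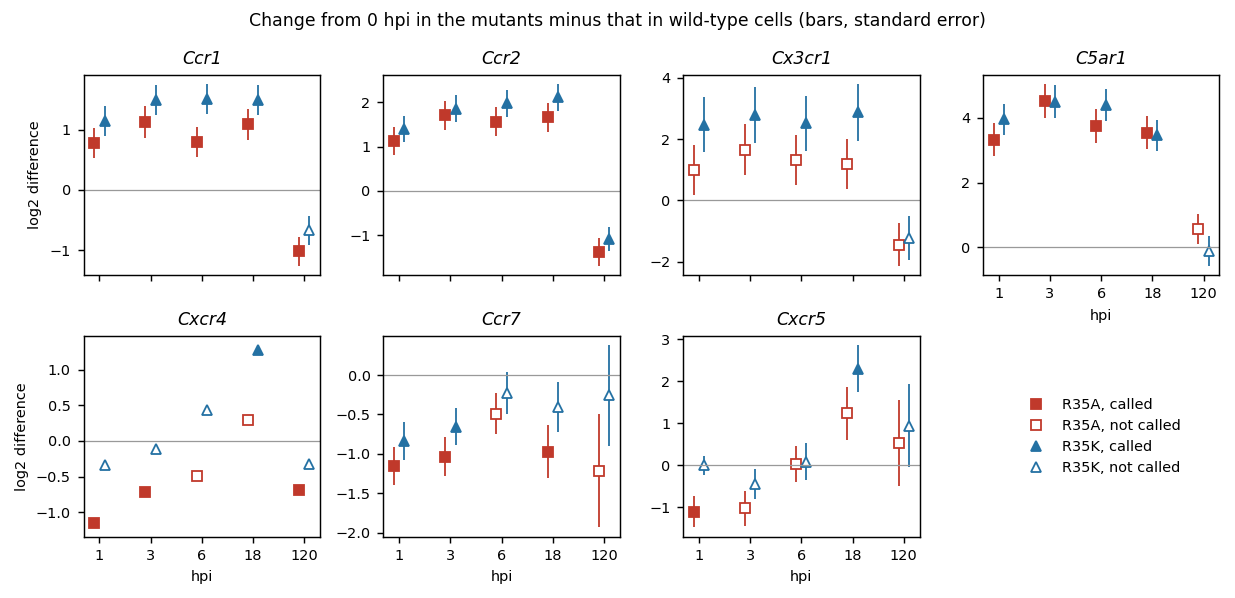
Log2 change from 0 hpi in R35A (squares) or R35K cells (triangles) minus that in wild-type cells, with its standard error, for 7 receptors. Filled symbols were called and open ones were not; Ccr1, Ccr2 and C5ar1 lie above 0 from 1 to 18 hpi, and Cxcr4 of R35K cells moves from -0.34 (1 hpi) to 1.28 (18 hpi).

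At 120 hpi Ccr1 and Ccr2 differed from wild-type cells in the opposite direction. The change of Ccr1 in R35A cells was -1.02 ± 0.24 relative to wild-type cells (edgeR, adjusted p = 0.00151), and that of Ccr2 was -1.37 ± 0.315 (adjusted p = 0.00151). In R35K cells Ccr2 was at -1.08 ± 0.274 (edgeR, adjusted p = 0.00893) and Ccr1, at -0.67 ± 0.238, was not called (adjusted p = 0.0804). C5ar1 (0.56 ± 0.471 and -0.11 ± 0.456) and Cx3cr1 (-1.44 ± 0.69 and -1.22 ± 0.721) were not called in either mutant. Cxcr4 ended lower in R35A cells (-0.68 ± 0.0557, edgeR adjusted p = 1.04e-14), and Cxcr2 was called lower in both mutants, from the counts given above. The levels themselves, compared for R35A against wild-type cells at 120 hpi, gave 4 lower receptors beside 18.8% of genes called, which were Ccr2 (-1.55 ± 0.0388, edgeR adjusted p = 2.07e-35), Cxcr4 (-0.81 ± 0.0399), Cxcr2 and Ccr9 (edgeR, adjusted p = 0.026). Ccr1 (-0.55 ± 0.0358), Cx3cr1 (-0.56 ± 0.0482) and C5ar1 (-0.24 ± 0.0479) were lower by less than 1.5-fold, and Ccr9 was lost when any of 3 libraries was left out, with an adjusted p of up to 0.540. The R35A difference in change was lost for Ccr1 without replicate 2 (adjusted p = 0.205) and for Ccr2 without replicate 1 (adjusted p = 0.0529) of R35A cells at 0 hpi. In R35K cells, Ccr2 was lost without replicate 2 of wild-type or replicate 1 of R35K cells at 0 hpi (adjusted p = 0.0861 and 0.137), and Cxcr2 without replicate 2 of either at 0 hpi.

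Marker genes of cell types also differed between the constructs, and not all in the same direction. Macrophage markers summed to 801 to 804 CPM in wild-type, 3380.0 to 3405 in R35A and 4921 to 5124 in R35K cells at 18 hpi, and to 18338 to 18664, 27048 to 29718 and 24446 to 25059.7 CPM at 120 hpi. The latter sums are mostly Lyz2, whose mean was 11803, 21855 and 17755 CPM. Csf1r (2239, 1859 and 2173 CPM), Cd14 (1424, 1007 and 1097 CPM) and Fcgr1 (427, 397 and 346 CPM) had their highest mean in wild-type cells. Itgam (493, 608 and 532 CPM), Adgre1 (881, 1182 and 1290 CPM), Cd68 (1102, 1233 and 1297 CPM) and Mertk (132, 241 and 261.5 CPM) had, like Lyz2, their lowest mean there. The fibroblast list stood at 14217 to 14615, 10524 to 10596 and 9092 to 9378 CPM at 18 hpi. Col1a1, a fibroblast collagen gene chosen after its values were seen, averaged 1017, 615 and 450.0 CPM there, and Ptprc, which encodes the leukocyte antigen CD45 and was chosen in the same way, 121, 290 and 432 CPM. At 18 hpi the difference in change from wild-type cells was 1.36 for Ptprc and -0.86 for Col1a1 in R35A cells, and 1.88 and -1.25 in R35K cells, on the log2 scale. At 120 hpi it was -0.46 and 1.81 in R35A cells and -0.30 and 1.45 in R35K cells. The fibroblast markers did not move together: Thy1 differed by -0.12 and -0.27 at 18 hpi, not called, and by -1.81 and -1.99 at 120 hpi, called in the direction opposite to Col1a1, and Dcn averaged 39.2, 133 and 48.1 CPM at 18 hpi. The part of these markers in the receptor differences was not tested.

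Levels of different receptors were compared per kilobase of exons. The length was that of all annotated exons of a gene together, 6760 bases for Ccr2, 2833 for Ccr1 and 1808 for Cxcr4. Which transcripts were expressed was not examined, so the order depends on this choice of length. Before induction wild-type cells had 175 CPM per kb of Cxcr4, 6.34 of Ccr7, 3.31 of Cxcr5, 0.504 of Ccr1, 0.285 of C5ar1 and 0.155 of Ccr2. At 120 hpi the order of levels per kb was Ccr2 (329), Ccr1 (252), Cxcr4 (241), C5ar1 (121) and Cx3cr1 (77.1) in wild-type cells. In R35A cells it was Ccr1 (171), Cxcr4 (136), Ccr2 (112), C5ar1 (101) and Cx3cr1 (52.0), and in R35K cells Ccr1 (189.9), Ccr2 (188), Cxcr4 (184), C5ar1 (82.9) and Cx3cr1 (61.8). In CPM without this division, Ccr2 had the highest mean of R35A cells at 120 hpi (754, against 484 for Ccr1, 260 for C5ar1 and 247 for Cxcr4). By the levels per kb, Cxcr4 alone was among the 3 highest receptors both before and after the switch. The 2 libraries of Ccr2 in R35K cells spanned the levels of Ccr1 and Cxcr4, and Ccr1 and Cxcr4 in wild-type cells at 120 hpi differed by about the spread of either, so these neighbours are not ordered beyond their spread.

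**Figure D5:**
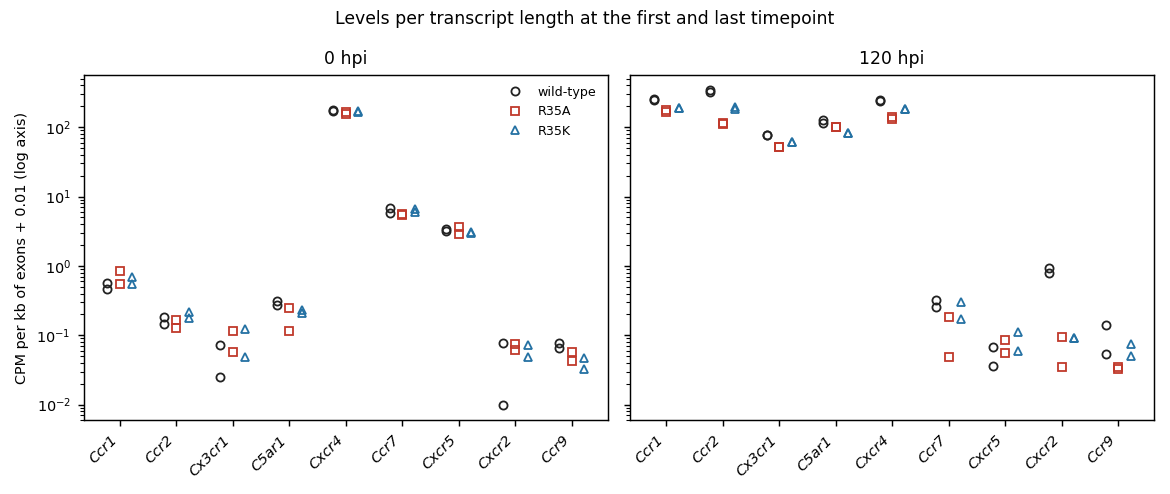
CPM per kb of exons + 0.01 (log axis) of the receptors at 0 and 120 hpi in the 3 constructs, with a point for each library. Cxcr4 leads at 0 hpi (175 CPM per kb in wild-type cells), and Ccr2 (329) and Ccr1 (252) lead in wild-type cells at 120 hpi.

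The other genes of the pathway were counted in lists of their own, to be read against the share of all genes called in each direction. Of all genes, 10.7% rose and 9.27% fell in wild-type cells at 1 hpi, 23.9% and 23.2% at 18 hpi, and 23.1% and 40.2% at 120 hpi. The shares were 18.3% and 18.9%, 21.0% and 21.6%, and 24.2% and 39.0% with R35A, and 15.5% and 17.4%, 18.4% and 20.5%, and 25.4% and 38.5% with R35K. Of 10 other chemokine receptors, 6 were tested, and at 18 and 120 hpi 3 and 5 rose with the wild-type construct, 5 and 4 with R35A and 5 and 5 with R35K, while 1, Cxcr6, fell at 120 hpi in each. Their median log2 change in wild-type cells was 1.05 and 2.16 at these times against 0.02 and -0.36 over all genes. Cxcr6, the receptor for Cxcl16, averaged 3.25, 2.90, 6.13 and 1.01 CPM at 0, 1, 18 and 120 hpi in wild-type cells, and Xcr1, a receptor of cross-presenting dendritic cells, 0.763, 1.22, 1.75 and 2.53 CPM.

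Of 5 atypical receptors, which bind chemokines without signalling through G proteins, 3 were tested. In wild-type cells 2 rose at 1 and 18 hpi, and at 120 hpi Ccrl2 rose and Ackr3 and Ackr4 fell. Ackr3, which takes up Cxcl12, averaged 19.9, 31.5, 35 and 0.187 CPM, Ccrl2 1.04, 3.39, 4.29 and 292 CPM and Ackr4 0.594, 0.827, 0.425 and 0.0919 CPM at 0, 1, 18 and 120 hpi. Of 15 other chemoattractant receptors, 14 were tested, and 7 rose and 1 fell at 1 hpi in wild-type cells against 10 and 1 in R35A cells and 10 and 2 in R35K cells, while 9 rose and 3 fell at 120 hpi in all 3, beside the 10.7%, 18.3% and 15.5% of all genes that rose at 1 hpi and the 23.1%, 24.2% and 25.4% at 120 hpi. C3ar1, the receptor for complement C3a, averaged 2.64, 19.6, 23.1 and 1071 CPM in wild-type cells and 2.40, 79.1, 106 and 992 CPM in R35A cells. Ptafr, the receptor for platelet-activating factor, averaged 1.95, 18.9, 26.5 and 362 CPM in wild-type cells, and S1pr1, the sphingosine-1-phosphate receptor of lymphocyte egress, 69.2, 52.0, 58.5 and 53.9 CPM.

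The ligands of the 9 receptors mostly rose as well. Of 21 ligands, 17 were tested, and 14 rose and 0 fell at 1 hpi in wild-type cells (median 2.71), against 16 and 0 in R35A cells (median 3.8) and in R35K cells (median 4.37), beside 10.7%, 18.3% and 15.5% of all genes that rose. At 18 hpi 16, 16 and 15 rose (23.9%, 21.0% and 18.4% of all genes), and at 120 hpi 13 rose in wild-type cells and 16 in either mutant, while 1, Ccl25, the Ccr9 ligand, fell in all 3. Ccl6, a Ccr1 ligand of macrophages, averaged 5.34, 93.7, 126 and 2384 CPM at 0, 1, 18 and 120 hpi in wild-type cells, Ccl9, another Ccr1 ligand, 5.27, 103, 146 and 1861 CPM, and Ccl2, the main Ccr2 ligand, 10.2, 65.6, 65.3 and 1436 CPM. Cxcl12, the Cxcr4 ligand that fibroblasts also make, averaged 129, 176, 248 and 158 CPM.

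Of 36 genes for G protein signalling and receptor desensitization, 33 were tested. In wild-type cells 8 rose and 4 fell at 1 hpi, 10 rose and 12 fell at 18 hpi and 22 rose and 3 fell at 120 hpi, with medians of 0.10, 0.07 and 1.18, and in R35A cells 10 rose and 9 fell, 13 and 7, and 21 and 3. Called in either direction were 19.9%, 47.1% and 63.3% of all genes in wild-type cells at these times, and 37.3%, 42.6% and 63.1% in R35A cells. Gnai2, an inhibitory G protein subunit through which these receptors signal, averaged 457 CPM at 0 hpi and 1191 CPM at 120 hpi in wild-type cells. Rap1b, a small GTPase of integrin activation, averaged 266 and 845 CPM, and Gnb1, a G protein beta subunit, 442 and 599 CPM.

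Genes with the most similar course were sought over the 12 group means of wild-type and R35A cells, among 12198 other genes, as a description with no test. Ccr1 ran closest to Cybb, a subunit of the phagocyte NADPH oxidase (Pearson r = 0.998), and Lilrb4 (0.997), and Ccr2 to Fam129a (0.996) and Clec12a (0.994). C5ar1 ran with Rbm47 (0.996) and Rab20 (0.995), and Cx3cr1 with Oas2 (0.989) and Slfn5 (0.988). For the falling receptors these were Rfx7 (0.992) and Zcchc11 (0.992) for Ccr7, and Itfg2 (0.990) and Exosc2 (0.986) for Cxcr5. For Cxcr4, which fell and then returned, they were Crip1 (0.989) and Rttn (0.988). The 12 means share their 0 hpi states and libraries, and the genes with few counts, Cxcr2 and Ccr9, are left out here.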

How the data were processed

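Polyadenylated RNA of 36 libraries (18 groups, 2 biological replicates each) was sequenced as single-end reads from stranded libraries. According to the study's methods and the labels, the authors ran FastQC on the reads and STAR 2.5.0a on mm10, which gave the deposited counts per gene, and normalized with DESeq2 1.14.1. The annotation release and the strand column of the counts are not given in the sources used here. The deposited log2 tables hold 19067 genes and were made by the authors as the log2 of normalized counts plus 1. They were checked against the counts and not tested. R35K libraries were deposited in separate tables. There were 0 columns left unused. Of the 40354 symbols, 39171 were found in GENCODE vM21.

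Tests on the counts used edgeR 4.0.16 (R 4.3.3, limma 3.58.1), with filterByExpr, TMM scaling and quasi-likelihood tests. A fit held the wild-type and R35A libraries (24 libraries, 16988 genes), another the R35K libraries (12 libraries, 16434 genes), and a joint fit all 36 (17277 genes) for R35K minus wild-type. A call needed a fold change of 1.5 and an adjusted p (Benjamini-Hochberg, over all genes of the fit) no higher than 0.05. The study's methods give the same fold and a p of 0.05 without saying whether it is adjusted, and unadjusted p was an alternative. Standard errors were derived from the F statistic. The test was tried on simulated counts. Ratios of low counts have exact conditional binomial intervals at 95%. Replicates were not identical, since their spread exceeded counting noise, but by little. The common coefficient of variation between replicates was 3.17%, 3.49% and 3.27% in these fits, so small p-values rest on a small spread between libraries. At 0 hpi, libraries of different constructs differed by 1.30 to 1.72 times the counting noise, beside 1.20 to 1.39 times for replicates. Alternatives were DESeq2 1.42.0, its size factors, other filters and thresholds, a replicate block, other sets of libraries and leaving out 1 library at a time. Comparison of levels at the same time without the 0 hpi libraries was added after the data were seen. The 9 receptors and the lists (other receptors, ligands, signalling genes, cell type markers) were chosen with earlier results of these data known. The 9 receptors were named throughout, with up to 3 genes of a list by mean CPM and the 2 most similar genes for each receptor; other genes named were chosen after their values were seen. A gene of these lists is not reported here.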

Additional observations from a re-analysis of the deposited data

Results flagged for a closer look

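For the results below, a test of the difference between constructs passed, meaning that the change from 0 hpi in the mutant minus that in wild-type cells met the 1.5-fold threshold and an adjusted p of at most 0.05 (edgeR quasi-likelihood test, 2 libraries per group). Values are log2 differences. All tests of a construct share the 0 hpi libraries, and no explanation was weighed.

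In R35A cells, Ccr1 differed by 0.78 at 1, 1.13 at 3, 0.80 at 6, 1.1 at 18 and -1.02 at 120 hpi. Ccr2 differed by 1.12 at 1, 1.70 at 3, 1.55 at 6, 1.66 at 18 and -1.37 at 120 hpi. C5ar1 differed by 3.32 at 1, 4.52 at 3, 3.74 at 6 and 3.54 at 18 hpi. Cxcr4 differed by -1.16 at 1, -0.72 at 3 and -0.68 at 120 hpi. Ccr7 differed by -1.15 at 1, -1.03 at 3 and -0.97 at 18 hpi. Cxcr5 differed by -1.11 at 1 hpi. Cxcr2 differed by -4.67 at 120 hpi.

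In R35K cells, Ccr1 differed by 1.15 at 1, 1.5 at 3, 1.52 at 6 and 1.5 at 18 hpi. Ccr2 differed by 1.39 at 1, 1.85 at 3, 1.98 at 6, 2.11 at 18 and -1.08 at 120 hpi. Cx3cr1 differed by 2.46 at 1, 2.78 at 3, 2.51 at 6 and 2.88 at 18 hpi. C5ar1 differed by 3.95 at 1, 4.5 at 3, 4.40 at 6 and 3.46 at 18 hpi. Cxcr4 differed by 1.28 at 18 hpi. Ccr7 differed by -0.84 at 1 and -0.65 at 3 hpi. Cxcr5 differed by 2.30 at 18 hpi. Cxcr2 differed by -3.86 at 120 hpi.

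Of these differences, those of Ccr1, Ccr2 and C5ar1 were above 0 from 1 to 18 hpi in both mutants, and those called at 120 hpi were below 0. The differences that lost their call when a library was left out stand beside the values in the results.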

How the results depend on the processing

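Of 2582 repeats of the 184 called receptor values under another setting, 2482 stayed called in the same direction, 100 lost the call and 0 reversed. This total includes 184 repeats with unadjusted p, which could not lose a call. Neither these nor the repeats at a 2-fold threshold could reverse, since they use the same fold changes. Values without a fold change or adjusted p in a setting were not counted, so the share that stayed is not a measure of stability. The receptor count for the step from 1 to 3 hpi in wild-type cells went from 2 to 0 at a 2-fold threshold and to 1 with no low-count filter, and ranged from 0 to 1 with 1 library left out. From 3 to 6 hpi it went from 0 to 1 with unadjusted p (0 to 1 with a library left out), and from 6 to 18 hpi from 5 to 3 at a 2-fold threshold (2 to 5). In R35K cells the step from 1 to 3 hpi went from 0 to 1 with unadjusted p, and that from 6 to 18 hpi from 2 to 0 at a 2-fold threshold and to 1 with a DESeq2 Wald test (0 to 2). For R35A minus wild-type cells the count at 6 hpi went from 3 to 6 in the same-time levels, a setting added after the data were seen, and at 18 hpi it ranged from 2 to 4 with a library left out. For R35K minus wild-type cells these ranges were 3 to 5 at 1 hpi, 3 to 5 at 3 hpi and 0 to 2 at 120 hpi, where a DESeq2 Wald test gave 1 call, since the adjusted p of Cxcr2 was not given. The causes were not tested, except that a stricter fold threshold can only lower a count.

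Other lost calls were 19 at a 2-fold threshold, 7 with the Wald test, 6 with no low-count filter, 2 with DESeq2 size factors (Ccr9 at 18 hpi and Ccr7 from 6 to 18 hpi in wild-type cells) and 1 in the same-time levels. With the replicate number as a block, 184 of 184 values kept their call. The numbers do not pair the libraries: over 11116 genes the median correlation of same-numbered deviations was -0.0045 (153 pairs, from -0.379 to 0.163, 5 over 0.1). At 0 hpi, R35A minus wild-type cells gave 0 genes, 1 with the block, 16 with no filter and 5 with only the compared groups.

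Over all genes, counts moved by over 1.5 times at a 2-fold threshold for every comparison except the changes at 120 hpi, the steps from 18 to 120 hpi and the 0 hpi level, for example from 3388 to 1708 at 1 hpi in wild-type cells. The early steps moved most. In wild-type cells the count of 176 for 1 to 3 hpi became 44 (2-fold), 467 (unadjusted p) and 89 (Wald), and that of 176 for 3 to 6 hpi became 64, 430.0 and 66. In R35A cells 94 became 35, 369 and 41, and 30.0 became 12, 297 and 6, and in R35K cells 57 became 14, 282 and 13, and 195 became 59, 430.0 and 111. DESeq2 size factors moved the median change of all genes from -0.36 to -0.20 (wild-type), -0.31 to -0.18 (R35A) and -0.28 to -0.14 (R35K) at 120 hpi, and from 0.02 to 0.14 in wild-type cells at 18 hpi. For R35K minus wild-type cells at 18 hpi that median went from 0.04 to -0.06, and 1539 higher and 764 lower genes became 1237 and 1108 (Wald 1164 and 914).

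Depth limits Cx3cr1, C5ar1, Cxcr2 and Ccr9 at 0 hpi and Ccr7 and Cxcr5 at 120 hpi. Libraries held few counts of these genes there, and differences in change carry that error.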

Other observations

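Ptafr and C3ar1, which belong to other chemoattractant families, had means of 91.8 and 166 CPM in R35K cells at 1 hpi, beside 18.9 and 19.6 CPM in wild-type cells, and of 1.04 and 2.47 beside 1.95 and 2.64 CPM at 0 hpi. C5ar2, the second C5a receptor, averaged 0.56, 0.51, 0.69 and 12.8 CPM at 0, 1, 18 and 120 hpi in wild-type cells. S1pr1 averaged 53.9 CPM in wild-type, 89.8 in R35A and 90.3 in R35K cells at 120 hpi. These genes were chosen after their values were seen, and their differences between constructs were not tested.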
